A study of Homo sapiens with 12 samples.

Results

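Taste and vomeronasal receptor genes were examined for their position in nucleolus-associated domains (NADs), the chromosomal DNA that co-purifies with nucleoli, in naive and primed human embryonic stem cells. The genes were chosen by name, as every RefSeq protein-coding gene on GRCh38 whose symbol starts with TAS1R, TAS2R or VN1R. This gave 30 genes of the 19821 protein-coding genes on chromosomes 1 to 22 and X: 3 TAS1R, 24 TAS2R and 3 VN1R genes. TAS2R45 has coordinates of a separate scaffold only in the gene table and was not analysed here.

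The cells were of the established line H9, with no genetic change and no treatment given in the labels, kept in RSeT medium (Naïve) or mTeSR medium (Primed). DNA from isolated nucleoli and from whole cells was sequenced, 3 libraries of each kind in each state, or 12 libraries in all. For each state the authors deposited 1 list of regions with the chromosome, start and end on hg38, which the labels tie to the 6 libraries of that state. The values below therefore have no replicates, no error across cultures and no test between states, and the read depth behind them is unknown. The regions lie on a 10 kb grid, which is longer than most of these genes. The lists give positions and no expression values, so the labelled cell states were not checked here.

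As background, TAS1R proteins are large receptors that work as dimers: TAS1R2 with TAS1R3 senses sweet compounds, and TAS1R1 with TAS1R3 senses the umami taste of glutamate. TAS2R proteins are bitter receptors, encoded by short genes with an uninterrupted coding sequence that arose by local duplication and lie mainly in clusters on chromosomes 7 and 12. VN1R proteins are related to the pheromone receptors of the rodent vomeronasal organ, and nearly all human copies have decayed into pseudogenes. NADs are known to hold much silent chromatin.

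Of the 30 genes, 17 touched a naive NAD and 15 a primed NAD. Among all coding genes, 76.8% touched a naive and 81.8% a primed NAD by the same count. Both lists held 8 of the receptor genes, the naive list alone 9, the primed list alone 7, and neither list 6. The shares of all coding genes in these classes were 65.2%, 11.6%, 16.6% and 6.57%. Because the receptor genes are short, with a median length of 1120 bp, coding genes of up to 5 kb give a closer background: 51.3% of these 3096 genes touched naive and 76.5% primed NADs, and 42.8%, 8.43%, 33.6% and 15.1% fell in the 4 classes. Against that background the naive share of the receptor genes (56.7%) was near and the primed share (50%) lower.

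The rule for calling a gene in a NAD decided how the receptor genes stood against all coding genes in the naive list. When at least 50% of the gene body had to be covered, 53.3% of receptor genes and 34.7% of all coding genes were in naive NADs, the opposite order to that by any overlap. In the primed list the same rule gave 46.7% against 61.2%, and whole-body cover gave 43.3% against 41.8%. Whole-body cover is rarer in long genes, and all coding genes have a median length of 24482 bp. Of the 3096 coding genes of up to 5 kb, 2210 were wholly in primed and 1243 wholly in naive NADs. Against these the primed share of the receptor genes stayed lower. Within 50 kb on either side of each gene's midpoint, a measure that does not depend on gene length, a median of 49.5% of the sequence was in naive and 54.4% in primed NADs. The medians over all coding genes were 40% and 70%.

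**Figure D1:**
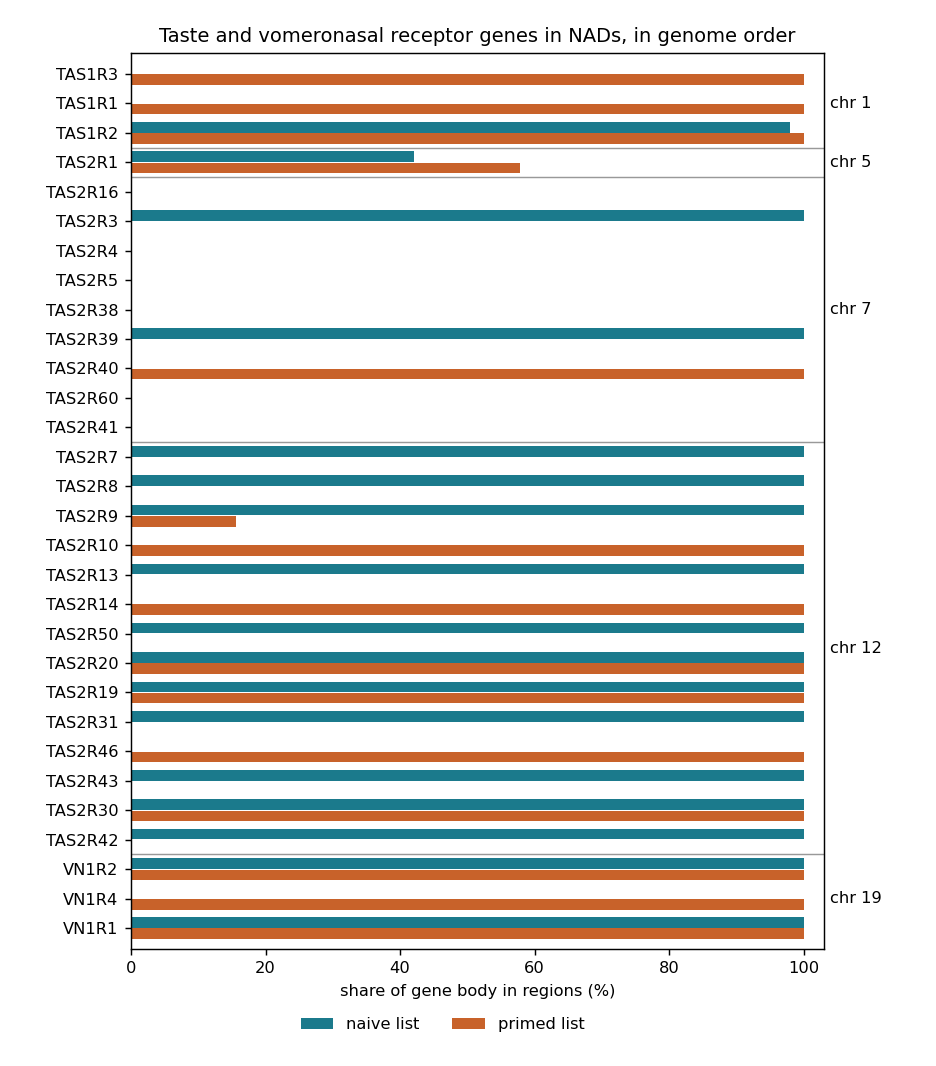
Share of each gene body in NADs (%), with 1 bar for the naive list and 1 for the primed list, for the 30 receptor genes in genome order; a missing bar is a share of 0. Most bars are at 0 or 100% because the genes are shorter than a 10 kb bin, and 14 genes of chromosome 12 all have a bar in at least 1 list while 6 genes of chromosome 7 have none.

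The sweet and umami receptor genes, all on chromosome 1, lay wholly in primed NADs. TAS1R3, the shared subunit (chr1:1331280-1335314), had 0% of its body in naive and 100% in primed NADs, inside a primed region 230 kb long. TAS1R1, the umami subunit (chr1:6555307-6579755), likewise had 0% in naive and 100% in primed NADs, inside a primed region of 40 kb. TAS1R2, the sweet subunit (chr1:18839599-18859660), had 98.0% in naive and 100% in primed NADs. The 2 genes found in primed NADs alone were 11.3 kb (TAS1R3) and 10.2 kb (TAS1R1) from the nearest naive region, so the naive difference covers more than a single bin. Around them, naive NADs covered 10% of the surrounding 100 kb in both cases, and primed NADs 90% for TAS1R3 and 70% for TAS1R1. Over the whole of chromosome 1 the covered shares were 33.2% (naive) and 39.4% (primed).

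The 250 bases before the start of TAS1R3 and of TAS1R2 are shown because both starts lay in primed NADs, TAS1R3 in these alone and TAS1R2 in those of both states. They are taken from RefSeq promoters on GRCh38.p14 and read 5′ to 3′ on the gene's strand. The motifs searched for below, which would stand in capitals, do not occur in them.
TAS1R3 (chr1:1331030-1331279, plus strand): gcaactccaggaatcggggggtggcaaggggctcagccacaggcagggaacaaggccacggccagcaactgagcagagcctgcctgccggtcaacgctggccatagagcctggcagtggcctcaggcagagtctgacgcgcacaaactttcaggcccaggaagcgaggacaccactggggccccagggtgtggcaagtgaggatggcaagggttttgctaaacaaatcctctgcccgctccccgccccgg
TAS1R2 (chr1:18859661-18859910, minus strand): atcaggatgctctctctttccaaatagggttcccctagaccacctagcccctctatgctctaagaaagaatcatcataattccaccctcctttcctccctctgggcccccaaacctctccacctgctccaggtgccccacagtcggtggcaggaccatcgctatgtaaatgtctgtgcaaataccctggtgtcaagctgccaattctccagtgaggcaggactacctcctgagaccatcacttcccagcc

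The bitter receptor cluster of chromosome 12 was densely covered in both states, by regions that coincided in part. It holds 14 of the 24 TAS2R genes within 390 kb (chr12:10800001-11190000), and all 14 touched a NAD of at least 1 state. Naive NADs held 11 of them and primed NADs 7. Of the 125 coding genes of up to 5 kb on chromosome 12, 50.4% touched naive and 75.2% primed NADs, and 12% touched neither. Both lists held 4 of the 14 genes (background 37.6%), the naive list alone 7 (12.8%) and the primed list alone 3 (37.6%).

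In genome order, the cluster opens with TAS2R7, a receptor for bitter salts, TAS2R8 and TAS2R9. All 3 had 100% of their body in 1 naive region of 50 kb. TAS2R9 had 15.6% in a primed region that begins inside the gene, while TAS2R7 and TAS2R8 had 0%. TAS2R10, a broadly tuned receptor, followed with 0% in naive and 100% in primed NADs. TAS2R13 then had 100% in naive and 0% in primed NADs, and the broadly tuned TAS2R14 had 0% and 100%. TAS2R50 had 100% in naive and 0% in primed NADs. TAS2R20 and TAS2R19 had 100% in both. TAS2R31, which responds to saccharin, had 100% in naive and 0% in primed NADs, and TAS2R46, another broadly tuned receptor, had 0% and 100%. TAS2R43, a close relative of TAS2R31 with overlapping ligands, had 100% in naive and 0% in primed NADs. TAS2R30 had 100% in both, and the last gene, TAS2R42, had 100% in naive and 0% in primed NADs. Reads of close copies such as TAS2R31, TAS2R43, TAS2R46 and TAS2R30 can be hard to place, so single bins over them are uncertain.

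Along the row, 2 of the 13 pairs of neighbouring receptor genes had the same class (both, naive alone, primed alone or neither). Among the 72 pairs of successive coding genes of up to 5 kb lying within 100 kb of each other on chromosome 12, receptor genes included, 36.1% did. The distance between these receptor genes was 27.8 kb in the median. The 7 genes in naive NADs alone lay close to primed regions all the same, between 0.386 kb (TAS2R31) and 5.99 kb (TAS2R42) away, less than 1 bin. Of the 3 in primed NADs alone, TAS2R46 was 1.36 kb, TAS2R10 3.64 kb and TAS2R14 17.4 kb from the nearest naive region. With 10 kb added on each side of every gene, the number of all 30 receptor genes in primed NADs went from 15 to 23. The number in naive NADs went from 17 to 22. The shares of all coding genes went from 81.8% to 86.7% (primed) and from 76.8% to 89.8% (naive).

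Of the 39 bins of the cluster, 23 were in naive and 26 in primed NADs, or 59.0% and 66.7%, a difference of -7.69 percentage points. An exact 95% binomial interval over the bins covered by 1 list only ran from -29.0 to 16.1 points and included 0; neighbouring bins are not independent, and it holds no error across cultures. The whole of chromosome 12 was at 39.8% and 46.3%. Both lists covered 15 bins, the naive list alone 8, the primed list alone 11, and neither 5. The shared bins made up 65.2% of the naive and 57.7% of the primed bins, against 51.4% and 44.2% over the whole chromosome. The receptor genes themselves showed the opposite order. Of the 13 bins that hold a receptor gene, 10 were in naive and 7 in primed NADs. Of the other 26 bins, 13 were in naive and 19 in primed NADs. The sign of the difference over the whole cluster turned, to 2.56 points, when regions up to 50 kb apart were joined.

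**Figure D2:**
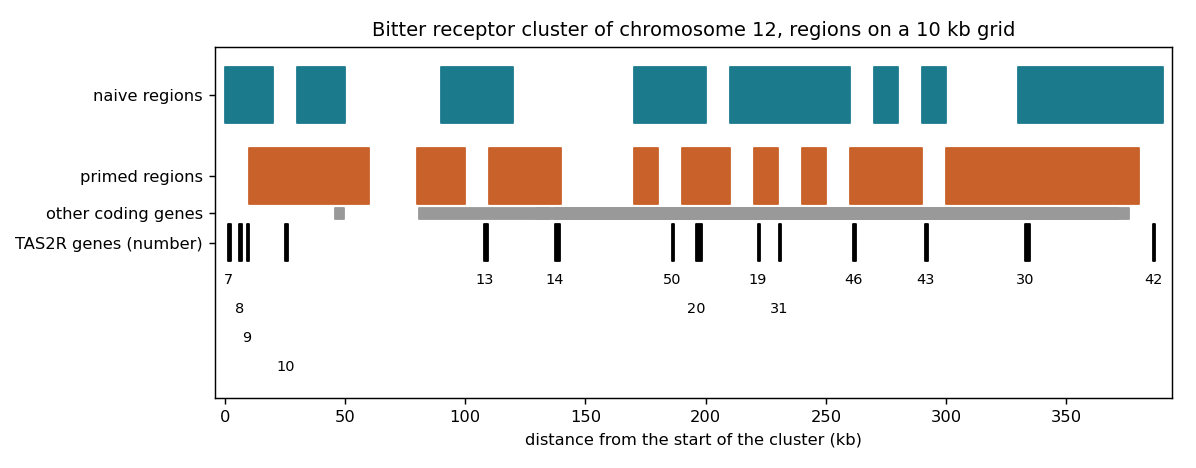
Map of the chromosome 12 bitter receptor cluster, in kb from its start, with naive regions, primed regions, other coding genes and the 14 TAS2R genes (given by their number) on separate rows. Naive and primed regions overlap in 15 of 39 bins, and 10 of the 14 receptor genes lie under regions of 1 state only.

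The other coding genes among these receptors encode salivary proline-rich proteins and a small membrane protein. PRR4, a proline-rich protein of tears and saliva, and SMIM10L1 had 100% of their bodies in both lists. PRH2, a proline-rich salivary protein, had 0% in naive and 100% in primed NADs. PRH1 spans 290647 bp in the annotation, and 59.0% of it was in naive and 69.0% in primed NADs. The read-through gene PRH1-TAS2R14 was at 60.5% and 65.8%. Of the 6 TAS2R pseudogenes in the cluster, 5 touched NADs of both states and TAS2R15P neither, while none was in 1 list alone. Of these, TAS2R67P had 49.9% of its body in primed NADs. Among coding genes of up to 5 kb on chromosome 12, 37.6% were in both lists and 12% in neither. The naive list alone held 12.8% of them and the primed list alone 37.6%. The 1 Mb before the cluster was 46% covered by naive and 56% by primed NADs, and the 1 Mb after it 35% and 52%.

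The chromosome 7 cluster was sparse in both lists. It holds 8 TAS2R genes within 1.72 Mb (chr7:141760001-143480000), with 23 other coding genes among them. Naive NADs held 2 of the 8 receptor genes, primed NADs 1 other, and neither list held the remaining 5. On chromosome 7 as a whole, 50.4% of the 123 coding genes of up to 5 kb touched naive NADs, 52% primed NADs and 30.1% neither.

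TAS2R3, a chloroquine receptor, and TAS2R39, which responds to tea catechins, each had 100% of their body in a naive region of 10 kb and 0% in primed NADs. TAS2R40, a receptor for bitter compounds of hops, had 0% in naive and 100% in primed NADs, in a region of 10 kb. TAS2R4, TAS2R5, TAS2R38, TAS2R60 and TAS2R41 had 0% in both. TAS2R38, the receptor whose variants set the taste of phenylthiocarbamide, lay 2.63 kb from a naive and 76.2 kb from a primed region. TAS2R60 was far from both, at 45.6 kb and 63.5 kb, and TAS2R41 lay 11.2 kb from a naive and 91.2 kb from a primed region. TAS2R4 was 6.67 kb and TAS2R5 20.2 kb from the nearest naive region. Each of the 3 genes that touched a NAD therefore did so in a region of 1 bin, the shortest length in the lists.

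Over the span, naive NADs covered 32 and primed NADs 19 of 172 bins, or 18.6% and 11.0%, a difference of 7.56 points (interval of the same kind, -0.463 to 14.5 points, which also includes 0). Both shares were below those of the chromosome, 36.0% and 36.1%. The lists coincided in 4 bins, and 125 bins were in neither. None of the 27 naive and 18 primed regions in it was longer than 20 kb. The 1 Mb before the cluster was at 20% and 17%. The 1 Mb after it was at 34% in naive NADs, near the share of the chromosome, and at 9% in primed NADs. Of the 7 pairs of neighbouring receptor genes here, which lay up to 1209.7 kb apart, 3 had the same class. Of 51 pairs of successive short coding genes within 100 kb on this chromosome, 49.0% did. In the 4 genes that lie at most 500 kb apart at the start of the cluster (TAS2R3 to TAS2R38), the difference was 18.2 points. The later genes, TAS2R39 to TAS2R41, form a separate group under that rule, and there the order was the opposite. Naive regions in that group begin 1420 and 1500 kb from the cluster's start, and primed ones 1460, 1500, 1540, 1570 and 1610 kb. All of these are 10 kb long.

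**Figure D3:**
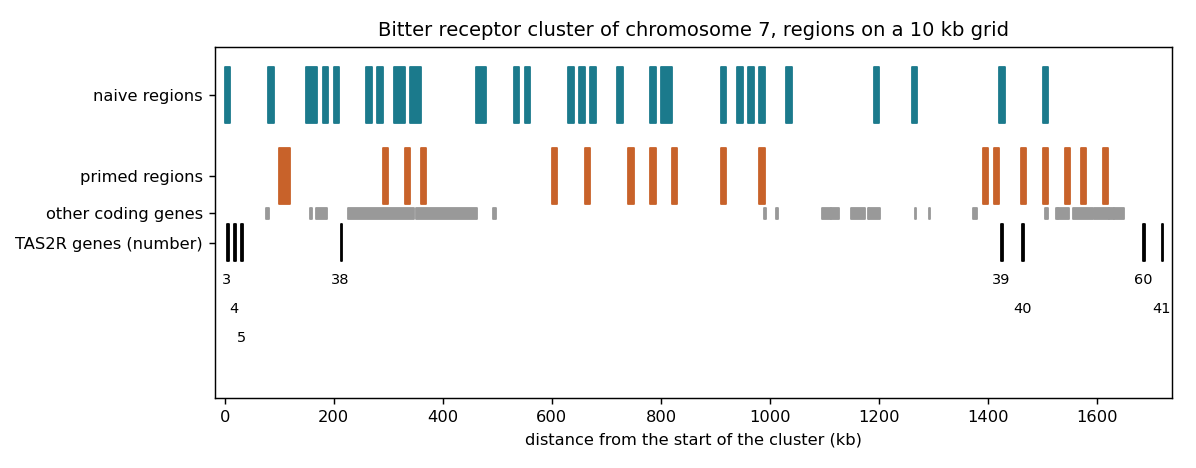
Map of the chromosome 7 bitter receptor cluster, in kb from its start, with naive regions, primed regions, other coding genes and the 8 TAS2R genes (given by their number) on separate rows. The regions are all 10 or 20 kb long, and 125 of the 172 bins lie under neither list.

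Of the 23 other coding genes in that span, 9 touched naive and 7 primed NADs, and 11 touched neither. The shares of all coding genes were 76.8%, 81.8% and 6.57%. The calcium channel genes TRPV5 and TRPV6 and the ephrin receptor genes EPHA1 and EPHB6 were among those at 0% in both. The olfactory receptor genes OR9A4 and OR9A2 were wholly in naive NADs and outside primed ones, and OR6V1 was at 0% in both. GSTK1, a glutathione transferase, had 100% in both.

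**Figure D4:**
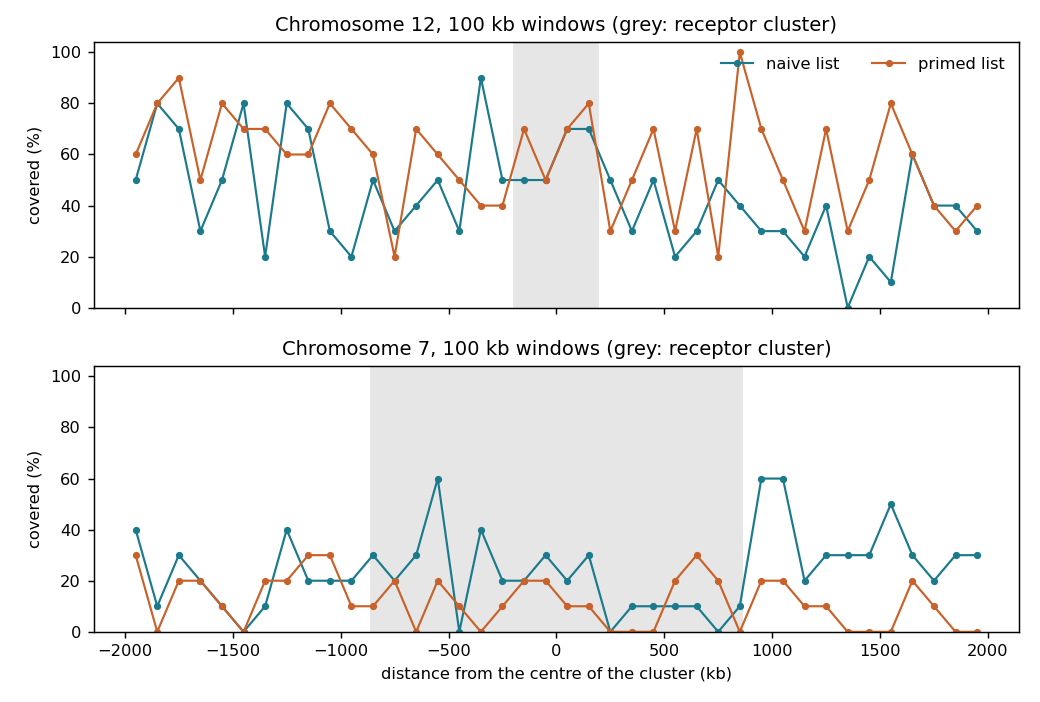
Share of each 100 kb window covered by naive and primed NADs (%), by distance from the centre of the bitter receptor clusters of chromosomes 12 and 7 in kb, with the cluster in grey. The chromosome 12 cluster lies in a densely covered stretch, 59.0% naive and 66.7% primed, and the chromosome 7 cluster in a sparse one, 18.6% and 11.0%.

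The remaining bitter receptor genes stand alone. TAS2R16 (chr7:122994704-122995700), a receptor for plant glucosides such as salicin, had 0% in both lists and was 14.3 kb from a naive and 54.7 kb from a primed region. TAS2R1 on chromosome 5 is annotated over 276.53 kb (chr5:9627347-9903876), and 42.1% of this body was in naive and 57.9% in primed NADs, spread over 6 and 8 regions. Its promoter entry in RefSeq, however, places the start of the receptor transcript 3.005 kb from the other end of the gene (chr5:9627347-9630351). That stretch had 100% in naive and 0% in primed NADs, 7.35 kb from the nearest primed region. With it in place of the whole body, the primed count was 14 in place of 15 and the naive count stayed at 17.

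The 3 VN1R genes lay on chromosome 19, where primed NADs covered 97.3% and naive NADs 51.6% of the sequence. All 3 had 100% of their body in primed NADs and lay in the same primed region, 9.30 Mb long, that ends at the chromosome's tip. Of the 229 coding genes of up to 5 kb on this chromosome, 99.6% touched primed and 53.7% naive NADs, so the primed count of these 3 genes is near that of short genes on the whole chromosome. VN1R2 (chr19:53258292-53259602) and VN1R1 (chr19:57454790-57457140), the latter a receptor found in human nasal mucosa, also had 100% in naive NADs, in regions of 20 kb and 70 kb. VN1R4 (chr19:53266676-53267723), next to VN1R2, had 0% and was 6.68 kb from the nearest naive region.

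VN1R pseudogenes, which far outnumber the genes, touched NADs at shares near those of all coding genes and above those of short coding genes. Of 105 that could be placed, 75 touched naive and 91 primed NADs, or 71.4% and 86.7%, against 76.8% and 81.8% of all coding genes. Their median length was 745 bp, and coding genes of up to 5 kb, the closer background, were at 51.3% and 76.5%. Both lists held 70 (66.7%) and neither held 9 (8.57%), against 42.8% and 15.1% of coding genes of up to 5 kb. All 32 on chromosome 19 and all 20 on chromosome 7 were in primed NADs, and 25 and 15 of these were in naive NADs. Coding genes of up to 5 kb on these chromosomes touched primed NADs at 99.6% and 52%, and naive NADs at 53.7% and 50.4%. The chromosome 7 pseudogenes lie far from the bitter receptor cluster of that chromosome, where 1 of 8 genes was in primed NADs. On the other chromosomes, 35 of 53 were in naive and 39 of 53 in primed NADs. VN1R5 and VN1R3, which RefSeq lists as transcribed pseudogenes, had 100% in both lists. Of the 9 placed TAS2R pseudogenes, 5 were in both lists (55.6%) and 4 in neither (44.4%), the latter including all 3 on chromosome 7. The same 42.8% and 15.1% of short coding genes are the background for these few pseudogenes.

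**Figure D5:**
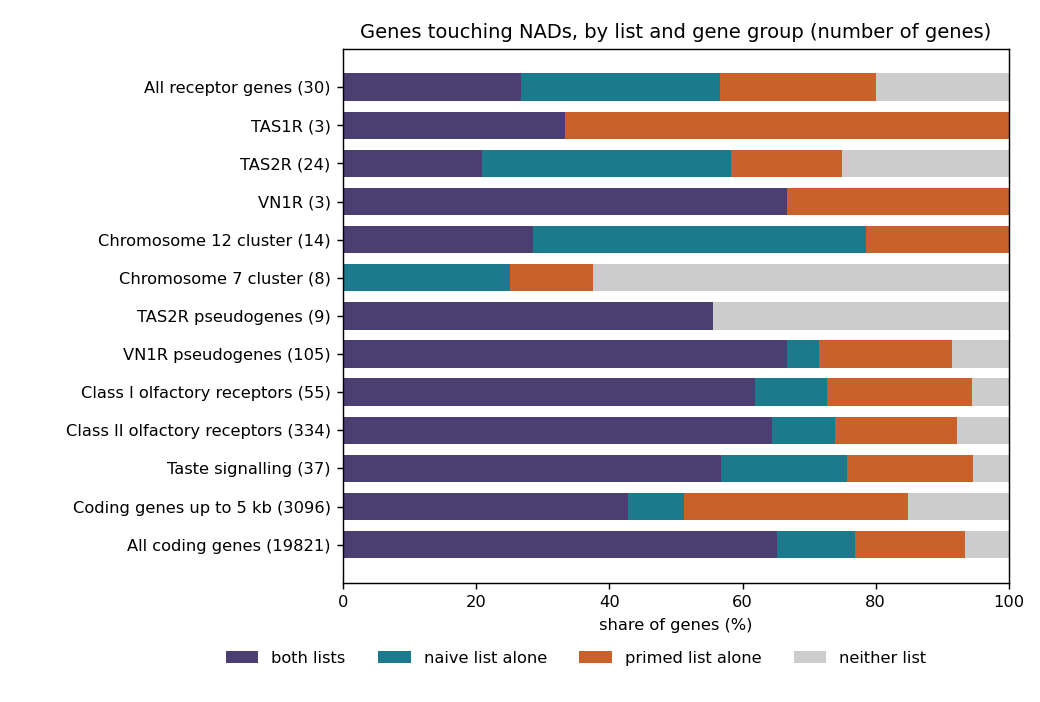
Share of genes (%) that touched NADs of both lists, of the naive list alone, of the primed list alone or of neither, for receptor genes, their clusters and pseudogenes, and groups for comparison (number of genes in brackets). The receptor genes had 26.7% in both lists, and all coding genes 65.2%.

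Olfactory receptors are the families most like these, being clustered chemosensory receptors with short coding sequences. Of 55 class I olfactory receptor genes 72.7% touched naive and 83.6% primed NADs, and of 334 class II genes 74.0% and 82.6%. The 24 TAS2R genes were at 58.3% and 37.5%. Both lists held 61.8% of class I, 64.4% of class II and 20.8% of TAS2R genes. Many olfactory receptor genes are annotated with exons upstream of the coding one, and a median length of 3077 bp for class II stands against 1086 bp for TAS2R genes. Class I genes, with a median of 1152 bp, were near the TAS2R genes in length. These shares were not tested against each other.

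The genes that carry the taste signal inside the cell touched NADs by any overlap about as often as coding genes in general. A list of 37 taste transduction genes had 28 members in naive and 28 in primed NADs, or 75.7% in each, near the 76.8% and 81.8% of all coding genes. They are longer than the receptors, with a median of 34139 bp. With at least 50% of the body covered, 9 of the 37 were in naive and 21 in primed NADs, against 34.7% and 61.2% of all coding genes. Those in naive NADs alone included the gustducin gene GNAT3 (74.9% of the body), the G protein beta subunit gene GNB3 (100%), PDE1A (13.3%), RGS21 (54.3%), the potassium channel gene KCNJ2 (4.5%) and the fatty acid transporter gene CD36 (61.1%). In primed NADs alone were CALHM1, the ATP-release channel subunit, and the G protein genes GNAI2, GNAT1 and GNAT2 (all 100%), the calcium release channel gene ITPR3 (64.7%), and the receptor transport genes RTP4 (43.8%) and REEP2 (11.9%). CALHM3, another subunit of that release channel, was at 0% in both. The taste phospholipase PLCB2 had 24.3% in naive and 100% in primed NADs, and the taste cation channel TRPM5 39.5% and 50.6%. Where only 1 of a gene's bins was covered, as in KCNJ2, the class rests on that bin.

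The sequences before some of the clustered bitter receptor genes share a motif that the choice of genes did not use. RefSeq promoter entries on GRCh38.p14 matched 24 of the 30 genes, and the 250 bases before each start were searched on both strands for the octamer ATGCAAAT, the classic site of POU-family factors, and for TATAAA, the core of the TATA box. The octamer, which reads ATTTGCAT on the opposite strand, occurred before 10 of 24 receptor genes (41.7%), against 1.58% of 22132 promoter windows of coding genes. These promoters are poor in G and C, 38.4% in the median against 62.0%. Among windows of up to 45% GC, 8 of 18 receptor windows and 4.27% of all coding windows held the octamer. Of 326 olfactory receptor windows, 1.53% held it. All 10 genes belong to the 2 clusters, 6 of the 8 on chromosome 7 and 4 of the 10 matched on chromosome 12. Because clustered genes arose by duplication, they are not independent cases. The 10 stretches are shown because they carry this shared feature; the octamer is in capitals, and each is read on the gene's strand.
TAS2R3 (chr7:141763870-141763917, plus): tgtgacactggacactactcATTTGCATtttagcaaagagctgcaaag
TAS2R5 (chr7:141790148-141790195, plus): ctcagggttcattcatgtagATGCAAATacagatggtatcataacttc
TAS2R39 (chr7:143183273-143183320, plus): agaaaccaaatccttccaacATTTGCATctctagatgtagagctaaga
TAS2R40 (chr7:143221890-143221937, plus): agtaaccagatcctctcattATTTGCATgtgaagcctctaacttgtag
TAS2R60 (chr7:143443251-143443298, plus): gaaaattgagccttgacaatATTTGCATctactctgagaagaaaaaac
TAS2R41 (chr7:143477654-143477701, plus): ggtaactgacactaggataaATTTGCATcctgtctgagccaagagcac
TAS2R7 (chr12:10802835-10802877, minus): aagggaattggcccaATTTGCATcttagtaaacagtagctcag
TAS2R9 (chr12:10810300-10810347, minus): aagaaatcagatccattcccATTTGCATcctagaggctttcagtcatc
TAS2R10 (chr12:10826503-10826550, minus): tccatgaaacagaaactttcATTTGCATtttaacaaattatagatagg
TAS2R13 (chr12:10909592-10909639, minus): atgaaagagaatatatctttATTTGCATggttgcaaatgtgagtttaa

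The octamer began between 49 bases (TAS2R5) and 235 bases (TAS2R7) before the gene's start. Genes that have it were found in every class: TAS2R3, TAS2R39, TAS2R7 and TAS2R13 in naive NADs alone, TAS2R40 and TAS2R10 in primed NADs alone, TAS2R9 in both, and TAS2R5, TAS2R60 and TAS2R41 in neither. In all coding genes the share with the octamer was 1.70% where the start lay in naive NADs alone, 1.33% in primed NADs alone, 1.65% in both and 1.80% in neither. The motif is a match of letters, and binding was not measured. TATAAA occurred before 6 of the 24 receptor genes (25%) and in 9.0% of all coding windows, and among windows of up to 45% GC in 6 of 18 and 32.3%. In TAS2R13 it overlaps its own reverse, and in no receptor window did it overlap the octamer. For 5 of the 24 genes the annotated start is an ATG, so that the window there precedes the coding sequence and not a known transcription start. These include TAS2R39, TAS2R60 and TAS2R41, which have the octamer, so its distance there is counted from the coding sequence. Of the 22132 windows of coding genes, 614 had such a start.

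Promoters were compared within each cluster for the genes with a RefSeq entry, 10 on chromosome 12 and 8 on chromosome 7. TAS2R31, TAS2R43 and TAS2R46, among the close copies named above, and TAS2R8 had no entry, so their pairs were not aligned. The most alike aligned pair on chromosome 12, TAS2R50 and TAS2R19, had 67.4% identity over an alignment of the 250 bases, and the median of 45 pairs was 48.5%. No identity of unrelated windows is given here, so these values do not tell how alike the promoters are. On chromosome 7 the highest of 28 pairs was 55.0%. TAS2R50 was in naive NADs alone and TAS2R19 in both.

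The whole windows of TAS2R3, in a naive NAD alone, and TAS2R16, in neither, are shown as examples of the bitter receptor promoters, again with the octamer in capitals.
TAS2R3 (chr7:141763847-141764096, plus strand): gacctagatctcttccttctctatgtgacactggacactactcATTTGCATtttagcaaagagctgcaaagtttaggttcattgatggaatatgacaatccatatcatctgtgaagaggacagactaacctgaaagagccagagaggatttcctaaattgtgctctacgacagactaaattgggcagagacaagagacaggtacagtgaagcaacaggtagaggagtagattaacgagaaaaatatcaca
TAS2R16 (chr7:122995701-122995950, minus strand): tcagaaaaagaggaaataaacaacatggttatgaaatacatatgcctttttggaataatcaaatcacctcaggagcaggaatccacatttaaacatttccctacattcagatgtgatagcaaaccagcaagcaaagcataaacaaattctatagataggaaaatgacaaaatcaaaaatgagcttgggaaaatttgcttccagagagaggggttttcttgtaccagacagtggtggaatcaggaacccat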

How the data were processed

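NAD-seq regions of naive and primed H9 cells were used as the authors deposited them, 1 list per state of region limits on hg38 with no score. Per the submitters' processing notes, the tools were BWA, SAMtools 1.10 and SICER, with no role stated. How they were set, and how 3 replicates became 1 list, is not stated there. Read depth is unknown, so no interval from reads could be given.

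Genes and promoters came from RefSeq tables on GRCh38.p14, the assembly of hg38. A gene counted as in a NAD when any base of its body overlapped a region. Chromosome shares leave out stretches of at least 500 kb without any region or gene. Receptor genes at most 2 Mb apart formed a cluster. Overlap code was tested on simulated data. Python 3.11.15, numpy 2.4.6, pandas 2.3.3, Biopython 1.88 and matplotlib 3.10.9 were used. Promoter identity came from global alignment. Proteins, planned for the most alike genes, were not analysed here.

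No test between states was run, since each state has 1 list. The binomial intervals over bins are descriptive only. They treat neighbouring bins as independent and do not measure error across cultures. The members and lists were chosen with earlier results of these data known. Named genes are all members, taste signalling genes in NADs of 1 state only, and coding genes inside the clusters; some others were named after their values were seen. Some genes of the taste signalling list are not reported here by name. Promoter windows are shown for the first matched gene of each class in genome order, and for genes with the octamer.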

Additional observations from a re-analysis of the deposited data

How the results depend on the processing

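The values come from 1 list per state on a 10 kb grid, with unknown depth and calling settings. No paired analysis was possible because each state has 1 list for its 3 replicates, and leaving out a replicate was not possible either. The count of receptor genes varied with region length, joined gaps and the overlap rule. It ran from 14 to 23 in naive and from 13 to 23 in primed NADs. The highest primed count (23) came with 10 kb added on each side. As shares of the 30 genes these ran from 46.7% to 76.7% (naive) and from 43.3% to 76.7% (primed). Over the same settings the shares of all coding genes ran from 12.6% to 89.8% and from 41.8% to 86.7%. The ends of the 2 naive ranges come from different settings. With regions of at least 20 kb the naive shares were 46.7% of receptor genes and 52.2% of all coding genes. With the whole body covered they were 50% and 12.6%. With 9 TAS2R and 105 VN1R pseudogenes added to the 30 genes, the counts were 97 and 111. Taste signalling genes in naive NADs numbered 16 of 37 with regions of at least 20 kb (52.2% of all coding genes), 9 with 50% of the body covered (34.7%) and 2 with the whole body covered (12.6%), and in primed NADs 11 with the whole body covered (41.8%). The naive minus primed share of the chromosome 12 cluster was -1.69 points with 100 kb added on each side and -15.4 with gaps of 10 kb joined, and turned to 2.56 points with gaps of 50 kb joined. That of the chromosome 7 cluster was 18.2 points for members at most 500 kb apart, which is a shorter span with 4 genes. In the later group under the same rule, TAS2R39 to TAS2R41, primed cover was the larger. The midpoint rule and the TAS2R1 transcript were chosen after seeing the data. In all, 31 of the alternative values kept their direction and stayed within 1.5 times the count or, for the differences in share, within the wide intervals over bins given above. A further 8 went beyond these limits and 1 reversed its sign. For the differences in share these limits are loose, because the intervals are wide and neighbouring bins are not independent.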
